A study of Rattus norvegicus with 6 samples.

Results

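Kinesins, dyneins and myosins are the motor proteins that move cargo along microtubules and actin filaments. Their genes were taken from a table of retinal transcript levels by gene symbol, ignoring case: kinesins (Kif and Kifap3), kinesin light chains (Klc), cytoplasmic dynein subunits (Dync and Dynl), axonemal dynein heavy chains (Dnah), dynactin subunits (Dctn) and myosins (Myo and Myh). This gave 105 genes in 107 rows, of 19623 symbols in the table. By known role they were divided into 46 transport motors and their subunits, 12 mitotic kinesins, 12 motile-cilium motors, 10 muscle myosins and 25 myosins outside muscle. The transport class also took in 11 kinesins grouped as other interphase kinesins, which act at microtubule ends, in signalling or at centrioles, or are less studied. Kif2b, a relative of the mitotic Kif2c, was counted in this group and not among the mitotic kinesins. Of the 105 genes, 98 were listed above 0, against 14989 of all 19623 symbols. Of the 105, 65 reached 1 FPKM (fragments per kilobase of transcript, scaled to sequencing depth), a share of 61.9%, against 61.0% of all symbols.

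The series holds RNA from rat neural retina at postnatal day 60, with 6 samples in 3 groups of 2. The groups are Royal College of Surgeons (RCS) rats with human neural progenitor cells (hNPCs) injected under the retina, RCS rats with sham surgery, and Long Evans rats with sham surgery. RCS rats lose their photoreceptors through a defect in the phagocytosis receptor Mertk, and Long Evans rats are a pigmented wild-type strain. Surgery was done at postnatal day 21, sham eyes received carrier medium, and the piece of retina around the graft, or the like piece of a sham eye, was used. The labels do not say whether each sample is a separate animal. The deposited table has 1 FPKM value per gene and names no sample or group. No group could therefore be compared with another, and the values below compare genes within 1 library or pool, with no replicate behind them.

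Kinesins mostly walk towards the plus ends of microtubules, which lie at axon terminals, and cytoplasmic dynein walks towards the minus ends with the help of dynactin. Photoreceptors depend on both, because membrane and its proteins are carried to the connecting cilium and because kinesin-2 and dynein-2 drive transport inside that cilium. Mitotic kinesins build and separate the spindle in dividing cells, axonemal dyneins beat motile cilia and flagella, and sarcomeric myosins contract muscle. Among myosins outside muscle, Myo7a is the Usher syndrome motor of photoreceptors and the pigment epithelium.

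The tissue check was made on 16 retinal marker genes, all of which reached 1 FPKM (median 119 FPKM). Gnat1 (rod transducin) was highest at 6316 FPKM, followed by Prph2 and Rom1 of the outer segment disc at 2276 and 996 FPKM, and Grm6, the ON bipolar glutamate receptor, was lowest at 15.1 FPKM. The deposited bounds carry the depth if they are read as 2 standard errors of counting error, which gives an implied fragment number per gene. Over the 105 motor genes these numbers sum to 54674 fragments, of 6124332 over all rows of the table, with a median of 114 per motor gene. The loci of 12 motor genes overlap that of another named gene. Bounds and intervals below cover counting error only, not the spread between animals or libraries.

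Transport motors had a median of 19.98 FPKM (quartiles 9.33 and 34.9 FPKM), 17.4 times that of the myosins outside muscle. It was 249 times that of the motile-cilium motors, a ratio of no firm size. The motile-cilium median lies between Kif6 and Dnah8, which rested on an implied 2 and 2.75 fragments. Of the 46 transport genes, 40 reached 1 FPKM and 33 (71.7%) reached 10 FPKM, against 28.9% of all symbols at 10 FPKM. Dynlrb1, Klc1 and Dynll1 also reached 100 FPKM, among 351 of all 19623 symbols. Of the mitotic kinesins 5 of 12 reached 1 FPKM (median 0.388 FPKM). Motile-cilium motors had 2 of 12 and a median of 0.0802 FPKM, muscle myosins 4 of 10 and 0.129 FPKM, and myosins outside muscle 14 of 25 and 1.15 FPKM. The share for all 105 motor genes, 61.9%, was close to the background of 61.0%, while the classes ranged from 16.7% to 87.0%. The median of all motor genes was 2.94 FPKM and that of all symbols 3.17 FPKM. Transport motors held 90.3% of the summed motor FPKM and myosins outside muscle 7.03%. Mitotic, motile-cilium and muscle motors held 1.16%, 1.004% and 0.545%, an order that did not hold in implied fragments, which are not divided by length (1.17%, 1.19% and 1.18%). No test was made between classes, whose members were chosen by role with earlier results of this table known. In bulk tissue a low value can come from few cells of a type or from little RNA per cell, and these cannot be told apart.

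**Figure D1:**
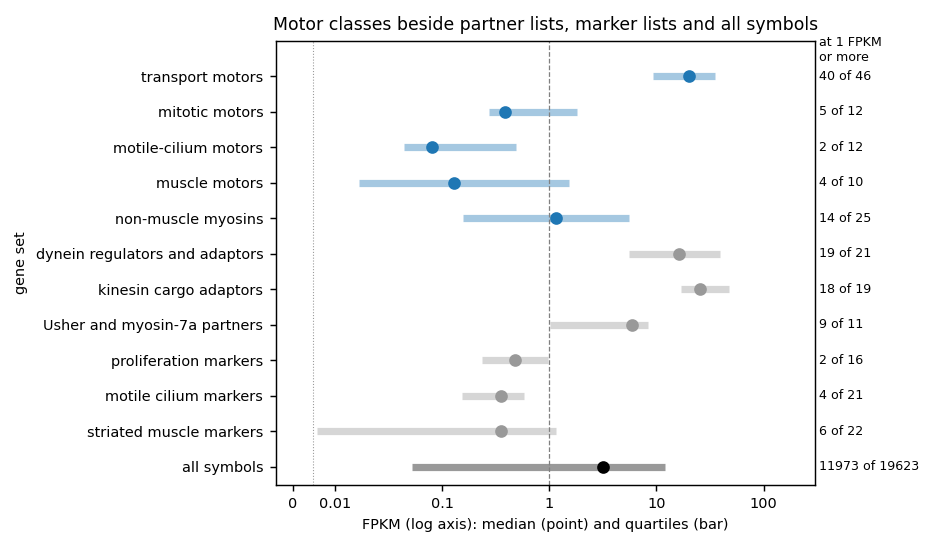
Median FPKM (points) and quartiles (bars) on a log axis for the 5 motor classes (blue), for 6 partner and marker lists (grey) and for all symbols (black), with the number of genes at 1 FPKM or more on the right. The transport motors lie above 1 FPKM over their whole quartile range of 9.33 to 34.9 FPKM, while the mitotic, motile-cilium and muscle medians lie between 0.0802 and 0.388 FPKM; a bar that ends at the dotted line reaches below the axis.

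Promoter sequences were compared by simple motifs, with no test. RefSeq windows of assembly GRCr8, from 250 bases before to 50 bases after a gene's start, were found for 84 of the 105 genes. The letters GGGCGG (the GC box, searched on both strands) occurred in the windows of 26 of 33 transport genes (78.8%), 7 of 11 mitotic genes, 7 of 11 motile-cilium genes and 14 of 20 myosins outside muscle, and in 1 of 9 muscle genes. Of all 27457 symbols with a window, 36.0% held it. That background also takes in symbols with no row in the table, so it is a set unlike the motor genes. A symbol with several windows counted if any of them matched. The letters TATAAA (the TATA box, both strands) occurred for 4 of 9 muscle genes, 5 of 33 transport genes, 2 of 11 motile-cilium genes, 2 of 20 myosins outside muscle and 0 of 11 mitotic genes, with 15.3% of all symbols holding it. The motifs do not overlap each other, and a match is a description of letters, not of a bound site. One window of each kind is shown, with the match in capitals (TTTATA is TATAAA on the other strand): Dynll1, the highest transport gene with a single window that holds GGGCGG without TATAAA, and Myh4, the first by symbol of the lowest muscle genes whose single window holds TATAAA without GGGCGG. Dynll1 lies on the plus strand at chr12:46972827-46973126 and Myh4 on the plus strand at chr10:52421898-52422197, both in GRCr8.
Dynll1: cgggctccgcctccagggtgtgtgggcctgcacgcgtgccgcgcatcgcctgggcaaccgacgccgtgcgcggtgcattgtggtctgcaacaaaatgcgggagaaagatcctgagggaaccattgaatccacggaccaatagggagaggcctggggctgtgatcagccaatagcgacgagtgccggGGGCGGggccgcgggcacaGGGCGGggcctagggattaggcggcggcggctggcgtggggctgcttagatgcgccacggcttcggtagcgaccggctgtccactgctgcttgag
Myh4: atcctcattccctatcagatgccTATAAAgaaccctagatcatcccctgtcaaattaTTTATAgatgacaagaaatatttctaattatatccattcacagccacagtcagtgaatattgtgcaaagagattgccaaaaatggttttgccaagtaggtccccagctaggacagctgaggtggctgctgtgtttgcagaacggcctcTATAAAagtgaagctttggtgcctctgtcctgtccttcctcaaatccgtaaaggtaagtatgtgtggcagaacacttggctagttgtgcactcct

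Kinesin-1, the conventional motor for mitochondria and vesicles, was present in all its chains. Kif5a, the neuron-specific heavy chain, stood at 35.4 FPKM (deposited bounds 33.96 to 36.8), above 92.5% of all symbols; its row (ENSRNOG00000005299) runs from position 70690904 to 70727087 of chromosome 7 in build rn5. The ubiquitous heavy chain Kif5b stood at 43.6 FPKM (41.4 to 45.9) and the neuronal Kif5c at 38.2 FPKM (35.99 to 40.4). The heavy chains thus lay within 1.23 times of each other in FPKM, with Kif5a at 0.810 times Kif5b (95% counting interval 0.760 to 0.865). By implied fragments, which are not divided by length, Kif5a was 1.74 times Kif5b. The light chains, which bind cargo, were uneven. Klc1 stood at 147 FPKM (142 to 153), the second highest of all motor genes, and held 65.6% of the summed light chain FPKM. Klc4, Klc3 and Klc2 stood at 31.9, 25.5 and 19.9 FPKM, so that Klc1 was 7.40 times Klc2 (6.81 to 8.06). Summed, the light chains were at 225 FPKM and the heavy chains at 117 FPKM, a ratio of 1.92 (1.84 to 1.995) that was chosen after the values were seen. The Klc3 locus overlaps that of Ercc2, a DNA repair helicase gene at 13.3 FPKM, and no source used here says whether the counting used strand.

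Kinesin-2 is the heterotrimeric motor of intraflagellar transport, and its subunits were also close to one another. Kif3b stood at 33.6 FPKM (32.2 to 35.02), Kif3a at 28.05 FPKM (25.95 to 30.1) and the accessory subunit Kifap3 at 19.7 FPKM (18.3 to 21.1). Kif3c, the neuronal alternative to Kif3b, was the lowest of these 4 at 15.2 FPKM (13.96 to 16.4), and Kif3b was 2.21 times Kif3c (2.02 to 2.42). Kif3a was 0.835 times its partner Kif3b (0.767 to 0.908). Dynein-2 drives the return trip in the cilium. Its heavy chain Dync2h1 stood at 7.26 FPKM (6.83 to 7.69) and its light intermediate chain Dync2li1 at 10.7 FPKM (8.95 to 12.5), both under each of these 4 kinesin-2 subunits.

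Among kinesin-3 motors, 1 gene led. Kif1a, the carrier of synaptic vesicle precursors, stood at 51.1 FPKM (48.5 to 53.7) and held 63.3% of the summed kinesin-3 FPKM. It was the highest kinesin heavy chain by FPKM, but its implied 1560 fragments were fewer than those of Kif5a (2514) and Kif3b (2234). Kif1c, Kif13a, Kif13b and Kif16b, which carry other vesicles and endosomes, stood at 13.6, 9.33, 4.17 and 2.53 FPKM. Kif5a was 0.693 times Kif1a (0.650 to 0.738), but 1.61 times it in implied fragments, which are not divided by length. The symbol Kif1b had no row and was not analysed here.

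The other interphase kinesins fell into a high and a low part. Kif21a and Kif21b, which limit microtubule growth, stood at 29.2 FPKM (26.9 to 31.5) and 15.1 FPKM (14.1 to 16.1). Kif2a, a microtubule depolymerase of neurons, stood at 22.3 FPKM (20.2 to 24.4), and the minus-end kinesins Kifc2 and Kifc3 at 9.33 and 3.56 FPKM. The remaining 6 of 11 were under 1 FPKM: Kif7, a Hedgehog regulator of the primary cilium, at 0.844 FPKM, Kif26a and Kif26b at 0.787 and 0.450 FPKM, the centriolar Kif24 at 0.141 FPKM and Kif2b at 0.0906 FPKM, while Kif12 was listed at 0.

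Cytoplasmic dynein-1, the main minus-end motor, had all 5 core subunits between 20.07 and 43.6 FPKM. The heavy chain Dync1h1 stood at 43.6 FPKM (42.6 to 44.7) with an implied 7071 fragments, the most of any motor gene. Dync1i2, the widely expressed intermediate chain, stood at 42.4 FPKM (39.8 to 44.96), and the interval of its ratio to Dync1h1 spanned 1 (0.972, 0.912 to 1.04). The neuron-enriched intermediate chain Dync1i1 was at 20.07 FPKM, 0.473 times Dync1i2 (0.429 to 0.523). The light intermediate chains Dync1li1 and Dync1li2, which hold the cargo adaptors, stood at 30.6 and 30.96 FPKM, a ratio of 0.988 (0.898 to 1.09). Between the heavy chains, Dync1h1 was 6.01 times Dync2h1 (5.64 to 6.39).

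Dynein light chains included the highest motor gene of all. Dynlrb1, a roadblock chain, stood at 171 FPKM (160 to 182), and its relative Dynlrb2, known from ciliated cells, at 2.94 FPKM (1.24 to 4.64) on an implied 12 fragments, a ratio of 58.04 (32.8 to 103). Dynll1 and Dynll2, the LC8 chains, stood at 137 FPKM (127 to 147) and 97.4 FPKM (93.5 to 101). Dynlt3 and Dynlt1, the Tctex chains, were lower, at 15.2 FPKM (13.6 to 16.9) and 14.6 FPKM (11.6 to 17.6), and the interval of their ratio spanned 1 (1.05, 0.835 to 1.31). LC8 chains also serve many proteins besides dynein. Several dynein light chains have close copies in mammalian genomes, and how shared reads were counted is not given in the sources used here.

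Dynactin, the complex that activates dynein, was uneven across its subunits, with an 8.06-fold range. Dctn1 (p150, the arm that binds microtubules) stood at 92.5 FPKM (89.8 to 95.2) and Dctn2 (dynamitin) at 89.1 FPKM (84.7 to 93.6); the interval of their ratio spanned 1 (1.04, 0.981 to 1.10). Dctn6, Dctn5 and Dctn4, of the pointed end, stood at 25.9, 20.1 and 16.2 FPKM, and Dctn3 (p24) at 11.5 FPKM (9.25 to 13.7). The Dctn5 locus lies within that of Cog7, a Golgi complex gene at 9.25 FPKM. Of 21 measured regulators and adaptors of dynein, 19 reached 1 FPKM (median 16.4 FPKM), against 61.0% of all symbols (median 3.17 FPKM). The adaptor Hook1 was highest at 83.8 FPKM, followed by Pafah1b1 (Lis1) at 55.8 FPKM and the dynactin subunit Actr10 at 49.0 FPKM, and Rilp, a lysosomal adaptor, was lowest at 0.299 FPKM. Of 19 genes listed as kinesin cargo adaptors, 18 reached 1 FPKM (median 25.7 FPKM). Clstn1, a ligand of kinesin light chains, led at 238 FPKM, then Syt1, a synaptic vesicle cargo, at 112 FPKM and the mitochondrial adaptor Rhot2 at 72.4 FPKM. Jph1, in the list but not an established kinesin adaptor, was lowest at 0.144 FPKM and the only gene under 1 FPKM.

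**Figure D2:**
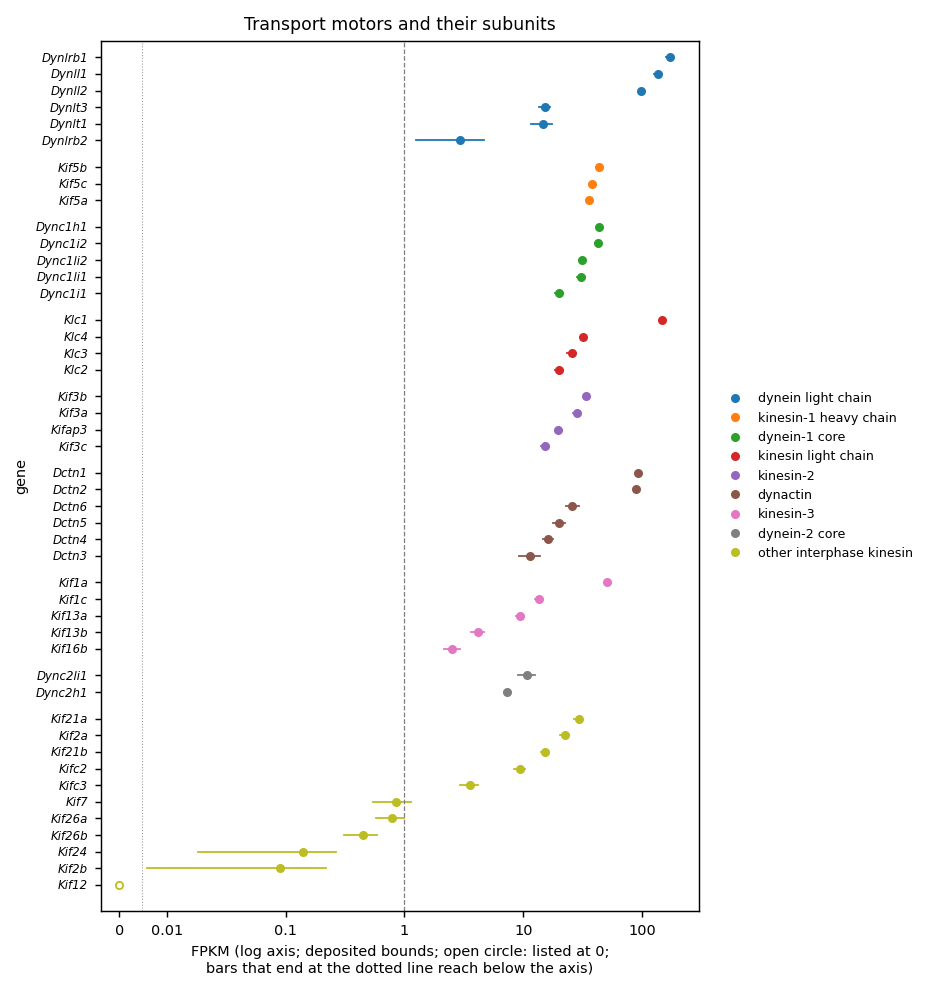
FPKM of the 46 transport motors and subunits on a log axis, with the deposited bounds as bars and colours for the 9 subgroups, each ordered from high to low. Dynlrb1 (171 FPKM), Klc1 (147 FPKM) and Dynll1 (137 FPKM) lie furthest right, and the 6 genes left of the dashed line at 1 FPKM all belong to the other interphase kinesins.

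Of 28 pairs of related motor genes set for comparison, 24 had both genes in the table and 22 rested on at least 10 implied fragments for each gene. The counting interval of the ratio lay above 1 in 11 of these, below 1 in 7 and across 1 in 4. The 4 pairs across 1 were Dync1i2 with Dync1h1, Dync1li1 with Dync1li2, Dynlt3 with Dynlt1 and Dctn1 with Dctn2, all of the dynein and dynactin complexes. In implied fragments, not divided by length, these 4 ratios were 0.154, 0.367, 3.71 and 3.02. Other dynein pairs lay clear of 1 in FPKM. These were Dync1h1 over Dync2h1 (6.01), Dync1i1 over Dync1i2 (0.473), Dynll1 over Dynll2 (1.41) and Dynlrb1 over Dynlrb2 (58.04). The FPKM ratios compare levels per length within 1 table and say nothing about the spread between animals.

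**Figure D3:**
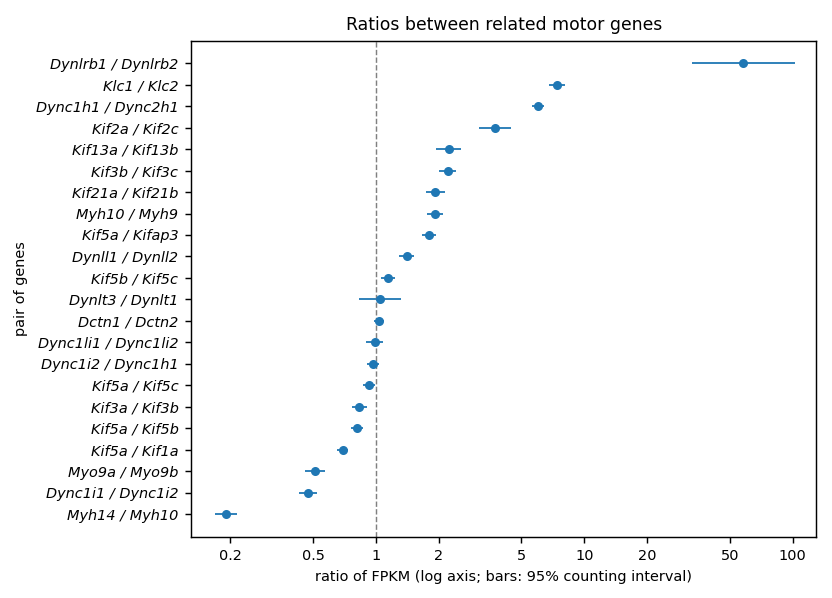
Ratios of FPKM between 22 pairs of related motor genes on a log axis, with 95% counting intervals as bars and the first-named gene on top of the ratio. Dynlrb1 over Dynlrb2 (58.04) and Klc1 over Klc2 (7.40) lie furthest right, Myh14 over Myh10 (0.191) lies furthest left, and 4 intervals cross the dashed line at 1.

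Mitotic kinesins were low, with 2 exceptions. Kif20a, a kinesin of the central spindle and of cytokinesis, stood at 6.45 FPKM (5.58 to 7.33; an implied 216 fragments), and Kif2c, a depolymerase of centromeric microtubules, at 5.99 FPKM (5.10 to 6.89). Kif18a, Kifc1 and Kif11, which align chromosomes and shape the spindle poles, followed at 1.83, 1.79 and 1.01 FPKM, with lower bounds of 1.37, 1.26 and 0.736 FPKM. The other 7 lay between 0.0405 FPKM (Kif15, on an implied 2 fragments) and 0.392 FPKM (Kif22, summed over 2 rows). Among them Kif20b and Kif23 of cytokinesis were at 0.383 and 0.297 FPKM, the chromosome-bound Kif4a at 0.326 FPKM, and Kif18b and Kif14 at 0.210 and 0.205 FPKM. Kif2a, the neuronal relative, was 3.72 times Kif2c (3.13 to 4.43). Beside these, 2 of 16 proliferation markers reached 1 FPKM (median 0.475 FPKM, range 0 to 9.96 FPKM), against 61.0% of all symbols. Prc1, the partner of central spindle kinesins, was highest at 9.96 FPKM, then the cyclin Ccnb1 at 1.08 FPKM and the mitotic kinase gene Plk1 at 0.979 FPKM, while Ccnb2 was listed at 0. Of the defining markers, Mki67 was at 0.424 FPKM and Top2a at 0.527 FPKM. The part of dividing cells in the Kif20a and Kif2c levels was not tested. The Kif20a locus overlaps by 15 bases that of Cdc23, an anaphase complex gene at 57.3 FPKM.

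Motile-cilium motors were nearly all under 1 FPKM. All 8 measured axonemal dynein heavy chains were below it, from Dnah14, listed at 0, to Dnah11 at 0.612 FPKM (0.457 to 0.768; an implied 62 fragments). Dnah9, an outer arm chain, was at 0.107 FPKM on an implied 17.5 fragments, and Dnah5, its outer arm partner, at 0.0095 FPKM on an implied single fragment. Between them lay Dnah8, Dnah17, Dnah2 and Dnah1 at 0.0882, 0.0542, 0.0500 and 0.0242 FPKM, each on at most 8 implied fragments. For the long Dnah9, 1 implied fragment corresponds to 0.00613 FPKM, against 0.180 FPKM for the short Dynll1, so lower values could be read in Dnah9. This does not hold for Dnah8, where 1 implied fragment corresponds to 0.0320 FPKM, near the 0.0299 FPKM of the mitotic Kif20a. Kif19a, known in mouse to limit the length of motile cilia, was the exception at 13.9 FPKM (12.7 to 15.2; an implied 479 fragments) and held 84.6% of the summed FPKM of the class. Kif27, Kif9 and Kif6 stood at 1.07, 0.449 and 0.0723 FPKM. Of 21 motile cilium markers, 4 reached 1 FPKM (median 0.354 FPKM, range 0 to 14.7 FPKM), against 61.0% of all symbols. The markers were led by the dynein light chain gene Dnal1 at 14.7 FPKM, the assembly factor Zmynd10 at 13.2 FPKM and the axonemal ruler Ccdc39 at 7.54 FPKM. The defining dynein intermediate chains Dnai1 and Dnai2 were at 0.516 and 0.513 FPKM, and Rsph4a, Spag6 and Armc4 were listed at 0. Their part in the Kif19a level was not tested.

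Muscle myosins separated by gene cluster. The 6 sarcomeric genes on chromosome 10 (positions 53372407 to 53677967 in rn5), which encode the fast, embryonic and extraocular chains, had no value above 0.156 FPKM. Myh1, Myh13 and Myh2 were at 0.156, 0.103 and 0.0669 FPKM, and Myh3, Myh4 and Myh8 were listed at 0. The neighbouring cardiac genes on chromosome 15 (positions 37492598 to 37542688) were higher, with Myh6 (alpha) at 3.60 FPKM (3.15 to 4.05; an implied 253 fragments) and Myh7 (beta, slow muscle) at 1.37 FPKM (1.09 to 1.65). Myh7b, a slow-type relative on chromosome 3, stood at 1.57 FPKM (1.28 to 1.87), and the smooth muscle chain Myh11 at 2.06 FPKM (1.73 to 2.38). The loci of Myh6, Myh7 and Myh7b each hold a microRNA gene (Mir3546, Mir208b and Mir499) that was listed at 0; without these 3 genes, 1 muscle gene, Myh11, reached 1 FPKM. Sarcomeric chains resemble one another closely, so the split of reads among them is uncertain. In the striated muscle marker list, 6 of 22 genes reached 1 FPKM (median 0.352 FPKM, range 0 to 17.4 FPKM), against 61.0% of all symbols. The highest member of the list was Pvalb at 17.4 FPKM, a calcium buffer that neurons also make. Mylpf at 3.17 FPKM and Actc1 (cardiac actin) at 3.07 FPKM came next. Of its 22 genes 8 were listed at 0, against 4634 of all 19623 symbols. The 8 included myoglobin (Mb) and the troponins Tnni1, Tnni2 and Tnni3. In the smooth muscle and pericyte list, 4 of 9 genes reached 1 FPKM, led by Rgs5, Tagln and Lmod1 at 27.1, 2.93 and 2.78 FPKM, with Cnn1 listed at 0. The part of muscle or vessel RNA in these values was not tested.

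**Figure D4:**
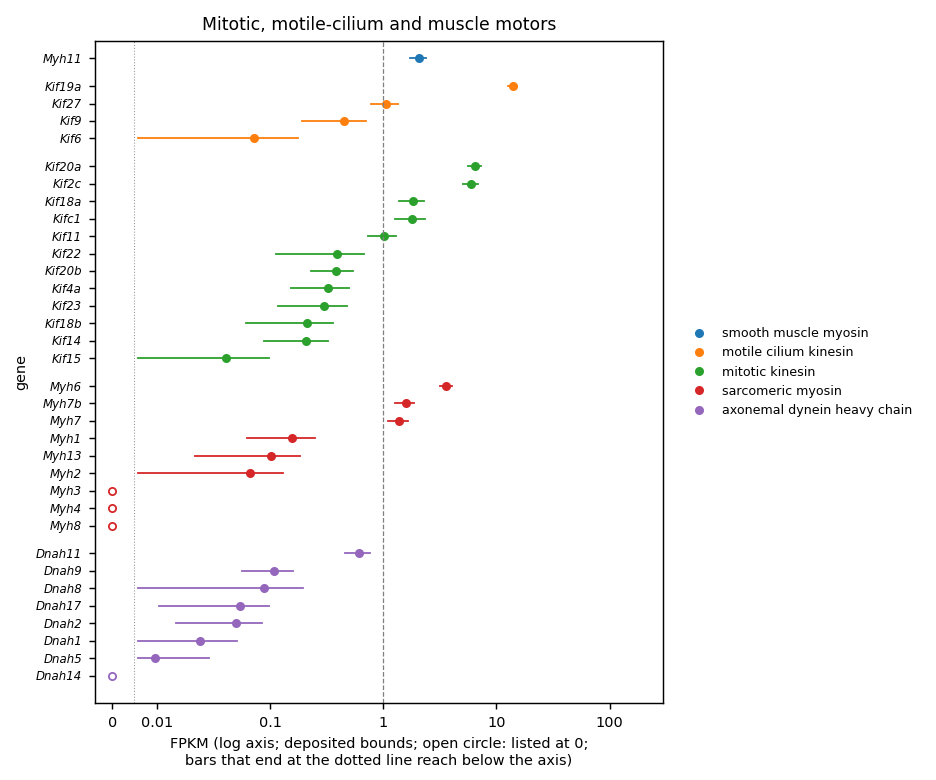
FPKM of the 12 mitotic, 12 motile-cilium and 10 muscle motors on a log axis, with deposited bounds as bars and open circles for genes listed at 0. Kif19a (13.9 FPKM), Kif20a (6.45 FPKM), Kif2c (5.99 FPKM) and Myh6 (3.60 FPKM) stand to the right of the others, and all 8 axonemal dyneins lie left of the dashed line at 1 FPKM.

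Myosins outside muscle spread over a wide range. Non-muscle myosin-2, which contracts the cell cortex, had all 3 heavy chains above 1 FPKM. Myh10 led at 20.5 FPKM (19.5 to 21.4), and Myh9, summed over 2 rows, was at 10.6 FPKM (9.87 to 11.4). Myh14 was at 3.91 FPKM (3.46 to 4.36), which is 0.191 times Myh10 (0.169 to 0.215). Myh10 was 1.92 times Myh9 (1.77 to 2.09), but 3.82 times it when only the higher Myh9 row was kept. The light chains and kinases of myosin-2 reached 1 FPKM in 10 of 11 genes (median 15.7 FPKM), against 61.0% of all symbols (median 3.17 FPKM). These light chain and kinase genes were led by Myl12b at 40.4 FPKM, Myl6 at 32.0 FPKM and Rock2, a kinase gene, at 17.6 FPKM. Mylk3 was listed at 0. Among the organelle carriers, Myo6, the myosin that walks to the minus end of actin, stood at 17.2 FPKM (15.96 to 18.5), Myo5b of recycling endosomes at 5.51 FPKM (4.96 to 6.07) and Myo5c at 0.970 FPKM. The symbol Myo5a had no row and was not analysed here.

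The sensory and protrusion myosins were low apart from Myo10. Myo10, the filopodial myosin, stood at 13.8 FPKM (12.6 to 14.98) and held 95.2% of the summed FPKM of its group. Myo7a stood at 0.443 FPKM (0.295 to 0.591) on an implied 36 fragments, above 33.5% of all symbols; its row (ENSRNOG00000013641) runs from position 169206711 to 169276704 of chromosome 1 in rn5. Myo15, of hair cell stereocilia, was at 0.158 FPKM, Myo3a and Myo3b, which are related to the fly photoreceptor myosin NINAC, at 0.0523 and 0.0220 FPKM, and Myo7b, of intestinal microvilli, at 0.0128 FPKM. The last 3 rested on at most 3 implied fragments each, and give no ratio. Among Usher proteins and other partners of Myo7a, 9 of 11 reached 1 FPKM (median 5.86 FPKM), against 61.0% of all symbols (median 3.17 FPKM). Pcdh15 stood highest at 25.3 FPKM and Cib2 at 9.45 FPKM, while Ush1g was lowest at 0.0682 FPKM. Cdh23, picked out once the values were known, stood at 0.253 FPKM. Of 10 pigment epithelium markers, a cell type that also uses Myo7a, 8 reached 1 FPKM (median 14.1 FPKM, range 0.270 to 152 FPKM). The highest were Ttr at 152 FPKM, Rrh at 29.5 FPKM and Rgr at 24.0 FPKM, the lowest was Best1 at 0.270 FPKM, and the defining Rpe65 was at 20.7 FPKM. The part of pigment epithelium RNA in the Myo7a level was not tested. Of 4 measured genes from a hair cell list, Espn and Strc were at 13.8 and 0.591 FPKM and Otof was listed at 0. Tecta, a gene of the tectorial membrane and not of hair cells, was at 0.123 FPKM.

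The remaining myosins were of signalling, mitochondria and membranes. Myo18a, a Golgi myosin, stood at 14.2 FPKM (13.4 to 15.1). Myo18b, its muscle relative, was counted among the myosins outside muscle and stood at 0.153 FPKM. Myo9b and Myo9a stood at 10.7 and 5.44 FPKM, with Myo9a at 0.509 times Myo9b (0.457 to 0.568). Myo19, of mitochondria, was at 1.15 FPKM with a locus that overlaps Znhit3 at 24.95 FPKM, and Myo16 at 1.07 FPKM. Myosin-1, which ties membranes to actin, reached 1 FPKM in 3 of 7 genes. Myo1c and Myo1e stood at 2.74 and 1.32 FPKM. Myo1d and Myo1f, the second of which is known from leukocytes, were at 0.817 and 0.584 FPKM, and Myo1a and Myo1g were listed at 0.

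**Figure D5:**
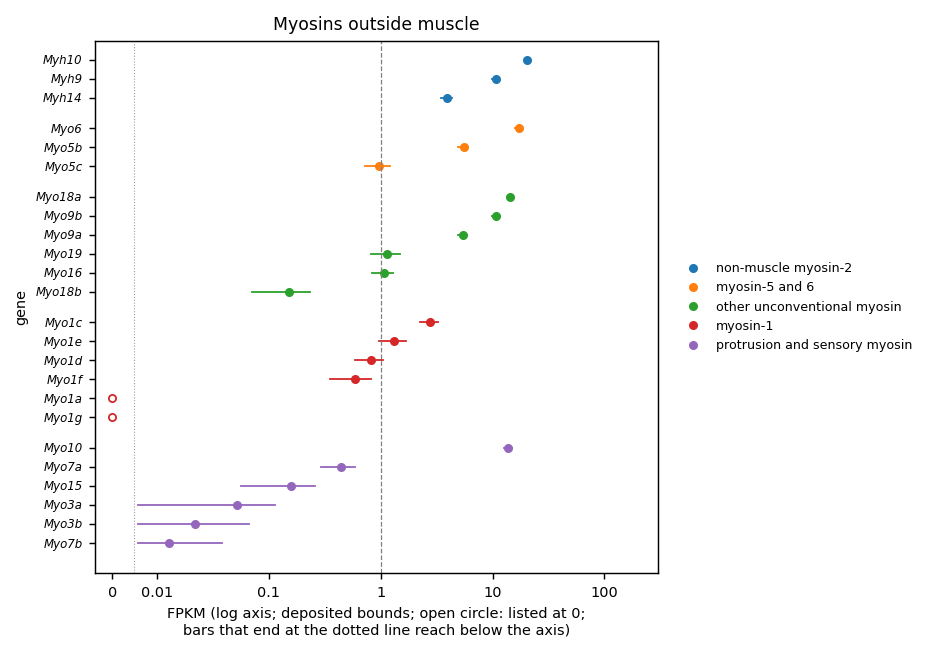
FPKM of 24 of the 25 myosins outside muscle on a log axis, with deposited bounds as bars, colours for the 5 subgroups and open circles for genes listed at 0. Myh10 (20.5 FPKM), Myo6 (17.2 FPKM), Myo18a (14.2 FPKM) and Myo10 (13.8 FPKM) lie furthest right, and Myo7a (0.443 FPKM) lies left of the dashed line at 1 FPKM.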

How the data were processed

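RNA from 6 retinal samples was sequenced with an Ion Total RNA-seq kit, per the labels' protocols. The authors deposited 1 table in the format of Cufflinks gene output with an FPKM value and a lower and upper bound for each of 26406 rows, per the file headers. Cufflinks 2.0.8 and build rn5 stand in the submitters' processing notes. The aligner, annotation, confidence level and any pooling were not given in those sources. The columns name no sample, so no group test was run. Python 3.11.15, numpy 2.4.6 and pandas 2.3.3 were used. FPKM of rows sharing a symbol in any case were summed, with bounds from the root of the summed squares (Kif22 and Myh9). An implied fragment number is the square of 2 times the FPKM over the distance to its upper bound. Of the 52 motor genes above 0 with up to 200 implied fragments, 35 lay within 0.02 of a whole number. Ratio intervals take the bounds as 2 standard errors. They were tried on simulated data drawn from the same counting model, which cannot show whether the deposited bounds have that meaning. The text names Kif5a, Myo7a, up to 8 highest and the lowest gene of each subgroup, genes at 0, set pairs, and the 3 highest and the lowest gene of each list, apart from overlapping genes and defining markers named after their values were seen. Members, classes and lists were chosen with earlier results of these data known. Some genes counted in the classes and lists are not reported here by name. Alternatives were other minima, row handling, units and class limits.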

Additional observations from a re-analysis of the deposited data

How the results depend on the processing

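The counts of motor genes at 1 FPKM or more depend on the minimum. At 5 FPKM the counts were 2 of 12 for mitotic and 1 of 12 for motile-cilium motors. They were 0 of 10 for muscle and 8 of 25 for non-muscle myosins. With any value above 0 the counts were 12, 11, 7 and 23 in the same order, against 14989 of all 19623 symbols. With a lower bound above 0 they were 11 for mitotic, 7 for motile-cilium and 7 for muscle. The count over all symbols was not taken at 5 FPKM or for the lower bound. Transport motors stayed within 1.5 times of 40 under each of 7 settings. They had 36 of 46 at 5 FPKM, 45 with any value above 0 and 44 with a lower bound above 0. Without genes whose locus overlaps another named gene, a setting added after the values were seen, 1 muscle gene reached 1 FPKM and the muscle median was 0.0669 FPKM. The muscle genes left out, Myh6, Myh7 and Myh7b, overlap only microRNA genes listed at 0 among named genes. Their loss therefore does not measure reads from overlapping genes. The median for transport was 25.9 FPKM without the other interphase kinesins, that for muscle was 1.37 FPKM over genes above 0, and that for motile cilia was 0.0521 FPKM without its kinesins. In implied fragments, which are not divided by length, the share of motor signal was 82.3% for transport, 14.2% for non-muscle myosins, 1.19% for motile-cilium, 1.18% for muscle and 1.17% for mitotic motors, and 5 ratios turned round: Kif5a to Kif5b (1.74), Kif5a to Kif5c (2.10), Kif5a to Kif1a (1.61), Kif21a to Kif21b (0.703) and Dynll1 to Dynll2 (0.299). Genes above 0 with under 10 implied fragments (17 of 98) give no order among themselves. No paired analysis was possible because no value is tied to a sample, and leaving out replicates was not possible for the same reason.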

Other observations

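Some motor genes carry another symbol in the table and were found through RefSeq synonyms (assembly GRCr8). They lie outside the symbol rule and entered no count above. The dynein-2 intermediate chains stood at 14.1 FPKM (Wdr60, now Dync2i1; deposited bounds 12.9 to 15.3) and 7.31 FPKM (Wdr34, now Dync2i2; 6.04 to 8.59), and the light chain Tctex1d2 (now Dynlt2b) at 8.35 FPKM (6.35 to 10.3). The kinesin-2 motor Kif17, a homodimer of cilia and dendrites listed as RGD1562511, was at 1.502 FPKM (0.796 to 2.21). The axonemal chain Dnahc6 (now Dnah6) was at 0.0594 FPKM on an implied 8 fragments.

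Myh9 appears in 2 rows 198177 bases apart on chromosome 7 of rn5, whose loci span 51352 and 51064 bases. The rows held nearly the same level, 5.36 FPKM and 5.29 FPKM. Whether they are copies of 1 gene in the assembly was not tested, and the summed value of 10.6 FPKM depends on it.

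The 6 neighbouring sarcomeric myosins on chromosome 10 held 22.3 implied fragments in all, and the pair on chromosome 15 held 349.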
